A study of Mus musculus with 8 samples.

Results

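The antibody joining segments of the heavy chain locus (Ighj1 to Ighj4) and of the kappa light chain locus (Igkj1 to Igkj5) are described here, 9 genes of the 49315 features in the deposited table. They were found by gene symbol. The set was chosen by its TPM values in UMPS_BKO and control libraries, which were already known, so the values in that contrast are a description without a test. RNA was sequenced from primary total B cells of the spleen, taken from mice at an age of 4 months and enriched for poly(A) RNA. The 4 UMPS_BKO libraries came from mice that lacked FcγRIIB (FcgammaR2BKO) and carried the B cell knockout of Umps (UMPS BKO), and their labels do not name a Cre. The 4 control libraries came from mice that also lacked FcγRIIB and carried CD23Cre+. FcγRIIB is an inhibitory Fc receptor, and mice without it develop a lupus-like disease, so both groups carry that background. The product of Umps carries out the last steps to uridine monophosphate in de novo pyrimidine synthesis. The CD23 promoter, which drives the Cre, is active in mature B cells, after the joining segments have been rearranged. Replicates are numbered, but nothing says that each is a separate mouse, so a p-value measures only how these samples vary, and that variation may be technical. Sex is not stated.

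A developing B cell joins a variable segment, in the heavy chain also a diversity segment, to 1 joining segment, and the transcript is then spliced from the joining segment to a constant region. The joining segment encodes the end of the third complementarity-determining region and the start of the last framework strand. Each B cell clone uses 1 joining segment in its productive heavy chain and 1 in its productive light chain, so the mixture of segments in RNA reflects the mixture of clones and how much antibody RNA each makes. Plasma cells make far more of that RNA than resting B cells. Igkj3 of the mouse is known as a nonfunctional segment.

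The reference sequences, from the GENCODE M21 transcripts of GRCm38, are printed to show how the segments differ and what they share. Capitals mark the conserved stretch that encodes the tryptophan or phenylalanine and the glycines of the joining motif. It was searched as TGGGG, any 4 bases and GG in the heavy chain, and as TTCGG, any 4 bases and GG in kappa.
Ighj1: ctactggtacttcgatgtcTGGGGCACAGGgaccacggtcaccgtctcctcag
Ighj2: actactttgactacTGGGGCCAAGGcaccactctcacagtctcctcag
Ighj3: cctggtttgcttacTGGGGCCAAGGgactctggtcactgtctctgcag
Ighj4: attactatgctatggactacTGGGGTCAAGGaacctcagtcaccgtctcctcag
Igkj1: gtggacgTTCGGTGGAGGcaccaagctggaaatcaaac
Igkj2: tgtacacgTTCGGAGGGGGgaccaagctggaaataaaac
Igkj3: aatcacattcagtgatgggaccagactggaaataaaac
Igkj4: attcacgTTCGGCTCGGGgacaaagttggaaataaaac
Igkj5: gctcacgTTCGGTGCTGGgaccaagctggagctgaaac

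All 4 heavy chain segments held the heavy chain motif, and Igkj1, Igkj2, Igkj4 and Igkj5 held the kappa motif, each once on the coding strand. Igkj3 held no match, which says only that these letters are not in this segment. Both strands were searched. In the first 48 bases of all GENCODE M21 transcripts the heavy chain motif occurred in 1.47%, and in the first 38 bases the kappa motif occurred in 0.257%. Aligned at their 3′ ends without gaps, heavy chain segments were 62.5% to 75.0% identical to each other and kappa segments 68.4% to 84.2%.

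The heavy chain segments lie on the minus strand of chromosome 12 (GRCm38) and the kappa segments on the plus strand of chromosome 6, each as a single annotated exon or exon union. Ighj1 spans bases 113429781 to 113429833 and is the farthest from the Ighm gene, 7050 bases away, while Ighj4, at 113428514 to 113428567, is 5783 bases away. Igkj1 (70722562 to 70722599) is 3835 bases from Igkc and Igkj5 (70723886 to 70723927) is 2507 bases from it. The kappa segments lie within an intron of the long noncoding RNA gene Gm30211, and no exon of another gene overlaps any of the 9 segments. The segments other than Ighj2 span 38 to 54 bases. Igkj2 and Igkj5 have annotated lengths of 43 and 42 bases, beyond their printed sequences of 39 and 38 bases. Ighj2 (113429468 to 113429567) has a second annotated transcript upstream of the segment, which brings its length to 100 bases. That transcript reads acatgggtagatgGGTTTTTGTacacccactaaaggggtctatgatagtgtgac, with capitals on GGTTTTTGT, the reverse complement of the consensus nonamer of a recombination signal (0.0367% of transcripts hold it in their first 54 bases, on either strand).

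Values are in TPM, the authors' unit, in which reads are divided by feature length and scaled to 1 total per library. The steps by which low TPM values differ gave the reads behind each value. All 37 nonzero values of the 9 segments came out whole within 0.05 reads with the annotated lengths, and 28 did with the length of the joining segment alone. Because the segments are so short, 1 read in Igkj1 was worth 1.40 to 2.68 TPM in UMPS_BKO libraries and 2.07 to 10.7 TPM in control libraries. A read longer than the segment can also be counted toward it from many positions, and the sources used here do not say how reads spanning variable, joining and constant segments were assigned.

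The libraries differed in the cell types whose transcripts they held. Summed over 8 B cell markers, all of them read in both groups, TPM was 632 to 14776 in UMPS_BKO and 6584 to 30207 in control. Erythroid markers (7 genes) summed to 4156 to 46949 TPM in UMPS_BKO and 116 to 513 TPM in control. Skeletal muscle markers (6 genes) summed to 189.8 to 96958 TPM in UMPS_BKO, highest in replicate 4, and to 0 to 2222 TPM in control. Hepatocyte markers (6 genes) summed to 1.38 to 12.8 TPM in UMPS_BKO and 0 to 34996 TPM in control, highest in replicate 2. These sums show that libraries of both groups held transcripts of other tissues. Plasma cell markers (8 genes) summed to 71.0 to 888 TPM in UMPS_BKO and 649 to 2901 TPM in control. Germinal centre markers (7 genes) summed to 7.38 to 33.1 TPM in UMPS_BKO, with Mef2b at 0 in all 4 libraries, and to 30.4 to 219.6 TPM in control. Immature B cell markers (5 genes) summed to 0 to 2.37 TPM in UMPS_BKO and 0 to 2.54 TPM in control. T cell markers (7 genes) summed to 10.8 to 67.0 TPM in UMPS_BKO and 51.6 to 127 TPM in control. Umps itself stood at 1.05 to 13.6 TPM in UMPS_BKO and 8.98 to 35.1 TPM in control, with overlapping groups, and the labels do not state which Umps exons are removed. Recovered depth, in units of 1000000 reads, was 10.6 to 28.6 in UMPS_BKO and 5.81 to 18.8 in control. Features above 0 TPM numbered 8626 to 13051 in UMPS_BKO, fewest in replicate 2, and 11034 to 15889 in control. In bulk libraries such as these, fewer cells of a type and less RNA per cell cannot be told apart, and the part of the marker differences in the results below was not tested.

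Ighj1, the heavy chain segment farthest from the constant regions, was listed at 0 TPM in UMPS_BKO replicates 1, 2, 3 and 4. In control replicates 1 to 4 it was at 106, 330.4, 375 and 131 TPM, resting on 71, 102, 49 and 75 reads. Reads of it were therefore counted in every control library and in no UMPS_BKO library. A count of 0 allows up to 3 reads, which for Ighj1 is 3.00 to 5.76 TPM in the UMPS_BKO libraries and covers counting error only.

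Relative to the heavy chain constant regions it is spliced to, Ighj1 was even across the controls. It had 1.02, 0.665, 0.831 and 0.586 reads per 1000 heavy constant reads in control replicates 1 to 4, a 1.74-fold range. Ighj4, the only other segment read in all 4 controls, ranged 118-fold on the same scale. Its rates were 0.0144, 1.70, 1.39 and 0.102 in control replicates 1 to 4. The lowest rests on 1 read, so the 118-fold range is set by a value near the floor. At the lowest and highest control rate, UMPS_BKO replicate 1, with 186138 heavy constant reads, would have held 109 to 190.1 Ighj1 reads. UMPS_BKO replicates 2, 3 and 4 would have held 6.73 to 11.7, 16.9 to 29.5 and 3.13 to 5.45 reads. These counts hold only if the rate is alike in every library, and they come from the values by which the set was chosen. For the 4 heavy chain segments together the rate was not alike. UMPS_BKO replicate 1 held 98 reads of them, where the control rates would give 128 to 666. That is 0.526 reads per 1000 heavy constant reads, against 0.687 to 3.58 in the controls. The low count was thus not confined to Ighj1, and nothing is concluded from the counts at control rates. Ighj2 had 0.949, 0.215 and 0.967 reads per 1000 heavy constant reads in control replicates 1 to 3. It had 0 in control replicate 4, which held 128049 heavy constant reads. The 0 of UMPS_BKO replicate 1 is the one with the most heavy constant reads behind it. In that library B cell markers summed to 14776 TPM and plasma cell markers to 888 TPM, within the control ranges. Its erythroid markers, at 5833 TPM, were above every control. Its germinal centre markers, at 29.1 TPM, were below every control, the lowest being replicate 1 at 30.4 TPM. The part of these marker levels in the 0 was not tested. The zeros of UMPS_BKO replicates 2 and 4 rest on far fewer heavy constant reads.

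Ighj2 had 12 reads, or 6.37 TPM, in UMPS_BKO replicate 1 and none in replicates 2, 3 and 4. The controls had 52.0, 56.6 and 231 TPM in replicates 1 to 3 and 0 in replicate 4. The control without Ighj2 makes the groups overlap. On the log2(TPM + 1) scale the difference, UMPS_BKO minus control, was −4.14 ± 1.40 (SE, n = 4 per group).

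Ighj3 was the one heavy chain segment read in 3 of the UMPS_BKO libraries, at 13.3, 2.12 and 31.4 TPM in replicates 1 to 3 and 0 in replicate 4. In control it was at 0, 283, 194 and 0 TPM in replicates 1 to 4. Controls were thus either far above the UMPS_BKO libraries or at 0, and the log2 difference of −1.32 ± 1.84 (SE) was smaller than its error. The difference was 0.086 when control replicate 2 was left out. It was 0.49 when both UMPS_BKO replicates 2 and 4 were left out, and 0.96 when control replicate 2 and UMPS_BKO replicate 4 were.

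Ighj4, the segment nearest the constant regions, had 74 reads, or 72.7 TPM, in UMPS_BKO replicate 1 and none in the other 3 libraries. The controls had 1.46, 827, 616 and 22.2 TPM in replicates 1 to 4, on 1, 260, 82 and 13 reads. UMPS_BKO replicate 1 therefore lay between the control libraries, above 2 of them. The log2 difference over all libraries was −4.65 ± 1.83 (SE).

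Together the 4 heavy chain segments held 98, 1, 20 and 0 reads in UMPS_BKO replicates 1 to 4, against 138, 474, 211 and 88 reads in control replicates 1 to 4. Of these, Ighj4 took 75.5% in UMPS_BKO replicate 1 (95% Wilson interval 66.1% to 83.0%), and 0.725%, 54.9%, 38.9% and 14.8% in control replicates 1 to 4. Ighj1 took 0 of 98 reads in UMPS_BKO replicate 1, which allows a share of up to 3.06%. Its share was 51.4%, 21.5%, 23.2% and 85.2% in control replicates 1 to 4. The Wilson interval was 18.1% to 25.4% in control replicate 2 and 76.3% to 91.2% in control replicate 4. Such intervals therefore do not cover how libraries of 1 group vary, and the groups are not compared by them. In UMPS_BKO replicate 3 all 20 reads were from Ighj3, so that 0 for Ighj1 allows up to 15.0%. The Wilson intervals and the limits for 0 reads count each read as independent, which PCR copies are not.

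**Figure D1:**
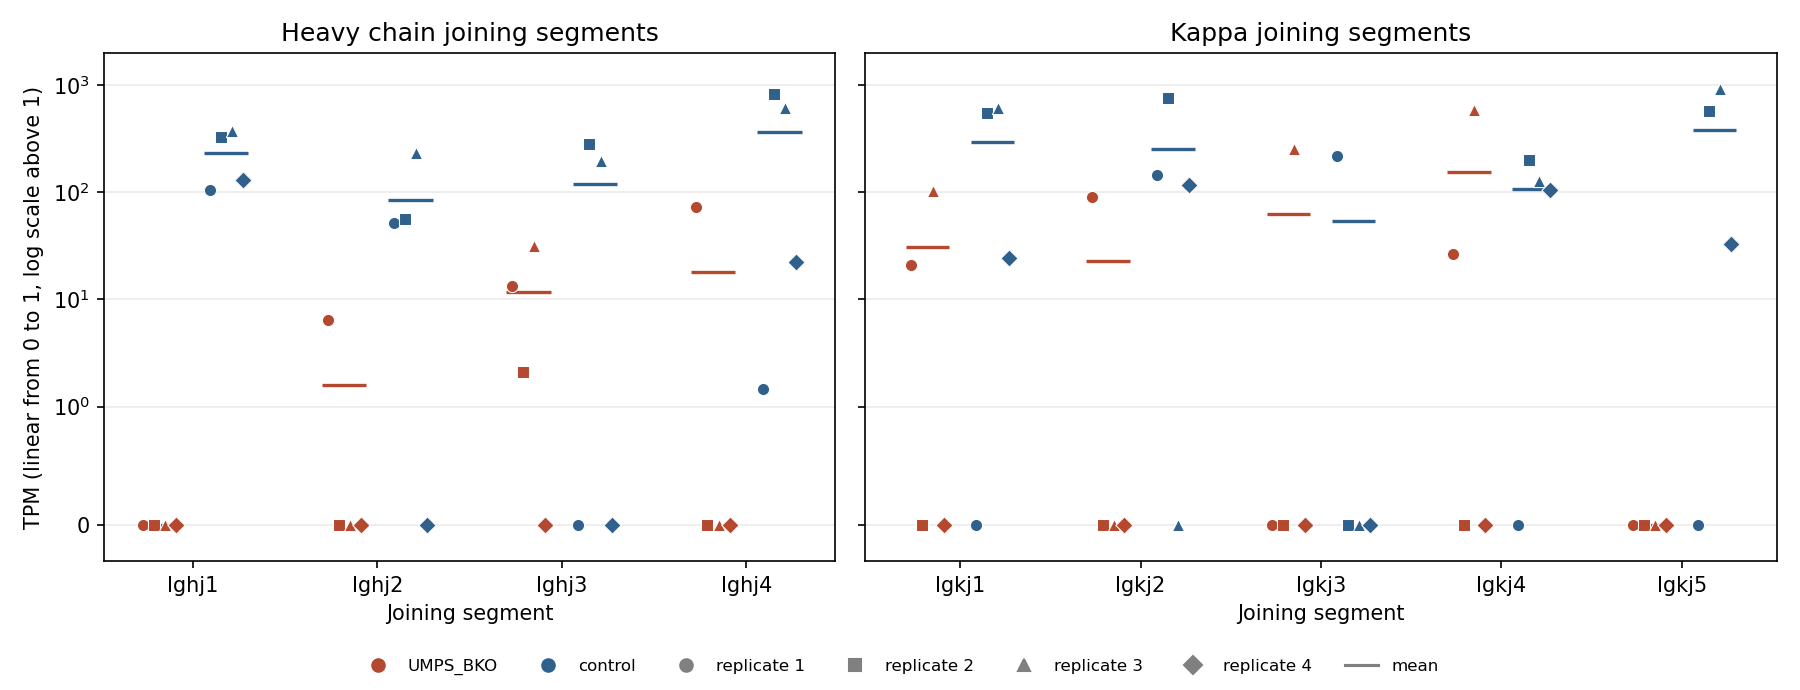
TPM of each joining segment in each library (y axis, linear from 0 to 1 and logarithmic above), heavy chain on the left and kappa on the right; symbols give the replicate number, colours the group, UMPS_BKO left of control, and bars the arithmetic mean of 4 libraries. Ighj1 is at 0 in all 4 UMPS_BKO libraries and at 106 to 375 TPM in the controls, while Igkj3 and Igkj4 have their highest values in UMPS_BKO replicate 3.

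The kappa segments did not follow the heavy chain segments in every library. Igkj1 was at 21.0, 0, 103 and 0 TPM in UMPS_BKO replicates 1 to 4 and at 0, 547, 609 and 24.3 TPM in control replicates 1 to 4. Both groups had libraries at 0, and UMPS_BKO replicate 3 exceeded control replicates 1 and 4. The log2 difference of −2.96 ± 1.98 (SE) was −0.17 without UMPS_BKO replicates 2 and 4.

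Igkj2 had 74 reads, or 91.4 TPM, in UMPS_BKO replicate 1 and none in the other 3 libraries. The controls had 145, 758, 0 and 116 TPM in replicates 1 to 4. UMPS_BKO replicate 1 thus lay below the 3 controls with reads and above the one without, and the log2 difference was −4.27 ± 1.89 (SE).

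Igkj3, the segment known as nonfunctional, was read in 2 libraries, 1 of each group. UMPS_BKO replicate 3 had 254 TPM on 128 reads and control replicate 1 had 218 TPM on 105 reads. All other libraries were listed at 0. The log2 difference was 0.05, and it became −1.94 without UMPS_BKO replicate 3 and −0.59 without control replicate 2, 3 or 4. Reads at a segment do not show whether it was rearranged, spliced or read from unrearranged RNA, and the table does not separate these.

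Igkj4 had its highest value in the UMPS_BKO group. It was at 26.5, 0, 589 and 0 TPM in UMPS_BKO replicates 1 to 4, and at 0, 199, 128 and 104 TPM in control replicates 1 to 4. The 297 reads in UMPS_BKO replicate 3 were the most for any segment in any library. The log2 difference of −1.85 ± 2.03 (SE) was within its error. It was 1.65 when UMPS_BKO replicates 2 and 4 were left out, and 0.085 when control replicate 2 and UMPS_BKO replicate 4 were.

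Igkj5, the kappa segment nearest Igkc, was listed at 0 in all 4 UMPS_BKO libraries. The controls had 0, 576, 918 and 33.0 TPM in replicates 1 to 4, on 0, 141, 95 and 15 reads. It differs from Ighj1 in that control replicate 1 was also at 0. Of kappa joining reads, 0 of 477 in UMPS_BKO replicate 3 and 0 of 108 in UMPS_BKO replicate 1 allow shares of up to 0.629% and 2.78%. Igkj5 took 0%, 28.4%, 57.9% and 12.3% in control replicates 1 to 4. For Ighj1 and Igkj5 a fitted log2 difference depends on the pseudocount, since 1 group is at 0, and is no bound.

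The 5 kappa segments together held 108, 0, 477 and 0 reads in UMPS_BKO replicates 1 to 4, against 184, 496, 164 and 122 reads in control replicates 1 to 4. In UMPS_BKO replicate 3, Igkj4 took 62.3% of them, Igkj3 26.8% and Igkj1 10.9%. In UMPS_BKO replicate 1, Igkj2 took 68.5%, Igkj4 17.6% and Igkj1 13.9%. The leading segment also changed from library to library among the controls. It was Igkj3 with 57.1% in control replicate 1, Igkj2 with 38.3% in replicate 2, Igkj5 with 57.9% in replicate 3 and Igkj2 with 44.3% in replicate 4.

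**Figure D2:**
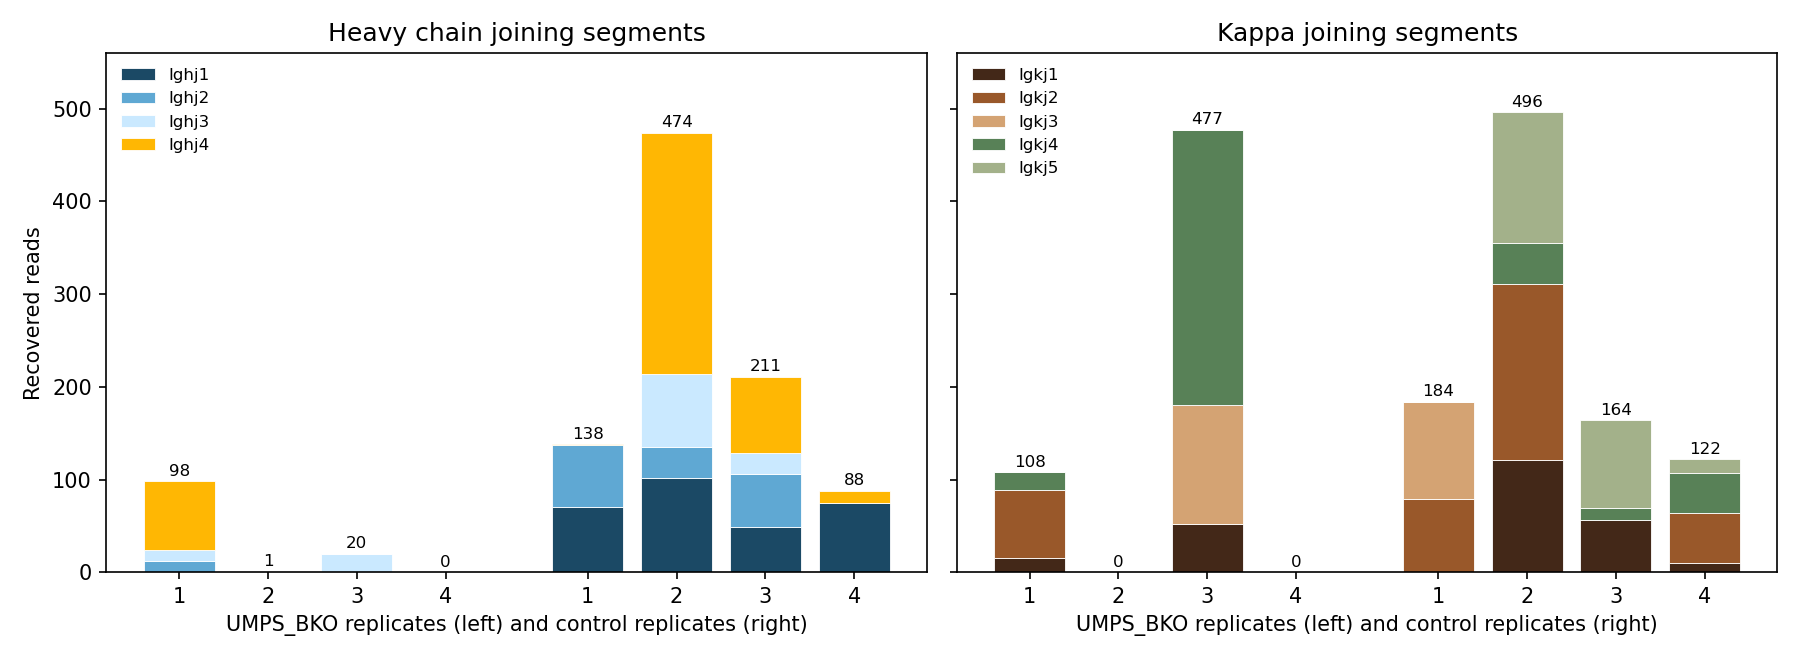
Recovered reads in the 4 heavy chain segments (left panel) and the 5 kappa segments (right panel), stacked by segment, for UMPS_BKO replicates 1 to 4 and then control replicates 1 to 4, with the total above each bar. UMPS_BKO replicates 2 and 4 hold 1 and 0 heavy chain reads and no kappa reads, and UMPS_BKO replicate 3 holds 477 kappa reads from 3 segments.

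Joining segment reads were mostly many or none. Of the 72 values (9 segments in 8 libraries), 35 were 0, 2 were 1 to 9 reads and 35 were 10 reads or more. In UMPS_BKO libraries 25 of 36 values were 0, and in control libraries 10 of 36. In the controls, 7 of the 9 segments were at 0 in at least 1 library. In order of control level, no segment stood apart from another, since the control ranges overlapped in TPM for each of the 36 pairs. Short features often showed zeros beside high values. Of the 9 segments, 8 had a mean of 50 to 500 TPM over the 8 libraries, and all 8 were at 0 in at least 1 library. So were 15 of the 19 other features (78.9%) of at most 100 bases at the same level, against 88 of 1017 features (8.65%) over 1000 bases.

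T cell receptor joining segments, short features that B cells should lack, also held reads. Of 70 in the table, 6 were read in at least 1 library. They held 33, 328, 302 and 47 reads in UMPS_BKO replicates 1 to 4, and 107, 12, 0 and 17 reads in control replicates 1 to 4. Their highest counts were thus in UMPS_BKO replicates 2 and 3, from 2 and 3 features. T cell markers summed to 21.4 and 56.2 TPM in those libraries. In control replicate 3, with 0 of these reads, they summed to 127 TPM. The source of the reads was not tested.

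Joining segments were also set against the constant regions to which they are spliced. Summed Ighj stood at 1.83, 0.355, 2.87 and 0 TPM per 100 TPM of heavy constant regions in UMPS_BKO replicates 1 to 4. In control replicates 1 to 4 it stood at 5.70, 10.1, 11.0 and 2.48. UMPS_BKO replicate 3 exceeded control replicate 4, so the groups overlapped, and the lowest values belonged to the libraries with 1 and 0 reads. Summed Igkj per 100 TPM of Igkc was 1.59, 0, 76.2 and 0 in UMPS_BKO and 7.69, 4.78, 6.26 and 2.18 in control. In 3 of 4 UMPS_BKO libraries it was below all controls, and in replicate 3 it was above them all. The zeros of UMPS_BKO replicates 2 and 4 rest on 3074 and 1173 Igkc reads, against 31839 to 134806 in the controls. The mean difference for kappa was 14.2, and it was −4.70 without UMPS_BKO replicate 3, so its direction rests on that library.

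**Figure D3:**
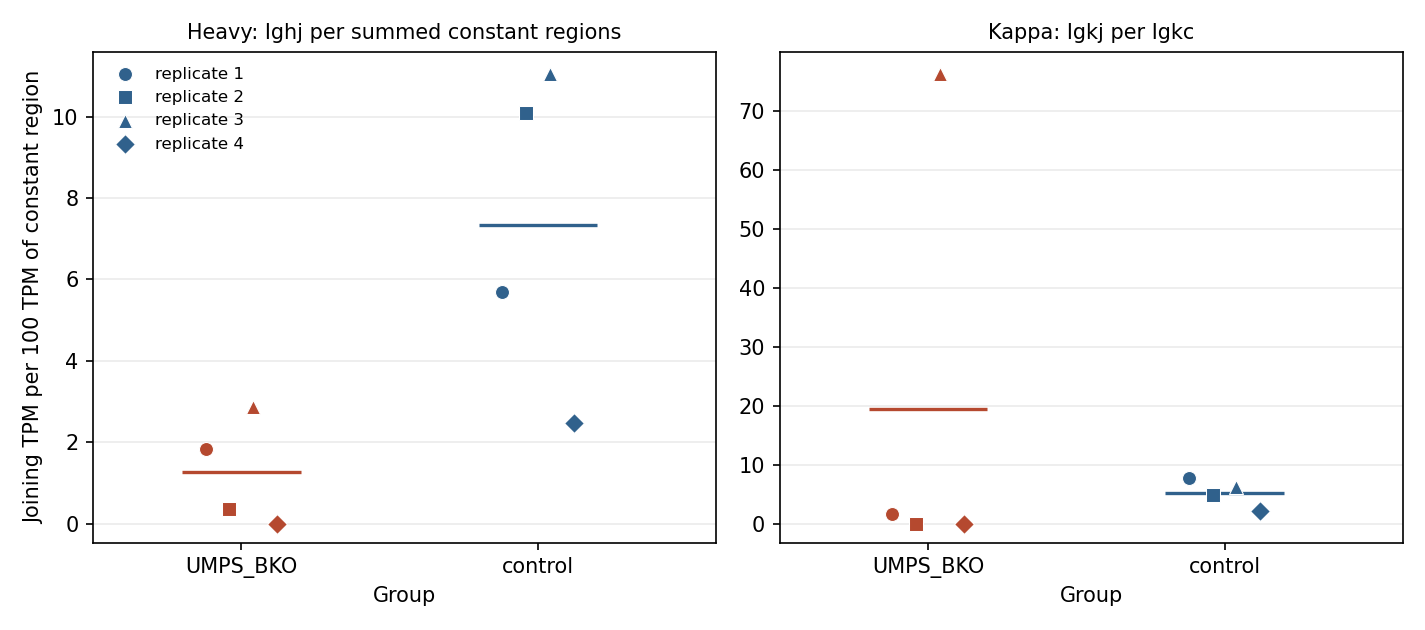
Summed joining segment TPM per 100 TPM of constant region (y axes, linear, of different range) in each library, for the heavy chain on the left and kappa on the right; symbols give the replicate number and bars the mean of 4 libraries. The heavy chain values are 0 to 2.87 in UMPS_BKO and 2.48 to 11.0 in control, and kappa UMPS_BKO replicate 3 stands at 76.2.

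Over all 9 segments the median log2 difference was −4.14, with 8 of 9 below 0, beside a median of −0.90 and 84.3% below 0 over the 10708 genes tested. With median-of-ratios scaling the segments' median was −3.81 and that of the tested genes −0.15. With Ighj1 and Igkj5, at 0 in every UMPS_BKO library, held at 3 reads per library, the segments' median was −3.41. A gene was tested where it had at least 1 TPM in at least 4 of 8 libraries, and 7 of the 9 segments passed, not Igkj3 and Igkj5. Ighj1 passed only through the controls, where it is high, so that with the same minimum of 4 libraries it was no longer tested once any 1 control was left out. In limma with Benjamini-Hochberg adjustment 1 of the 9 segments, Ighj1, was called lower and 0 higher, beside 0.0934% of tested genes called lower and 0.0374% called higher. The same segment was the one whose UMPS_BKO libraries all lay below all controls, which held for 4.81% of tested genes, and the opposite held for 0.504%. Nothing is read from these counts, because the set was chosen with this contrast known.

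The pattern of Ighj1 was found in other features too. Of 9159 features read in all 4 controls, 46 (0.502%) were at 0 in all 4 UMPS_BKO libraries. In the opposite direction, 13 of 6629 features read in all UMPS_BKO libraries (0.196%) were at 0 in all controls. Among features with a mean control level of at least 100 TPM, Ighj1 and the variable segments Igkv4-74 and Ighv5-16 were the 3 of 814 with this pattern. Among features of at most 100 bases it was 1 of 18.

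The genes around the joining segments in the antibody pathway were 25 tested genes of 54 listed. In limma 0 of them were called, beside 0.0934% of all tested genes called lower and 0.0374% called higher. Of the constant regions, the ends of antibody chains to which joining segments are spliced, 11 of 12 were tested. All 11 lay below 0, as did 84.3% of all tested genes. Their median log2 difference was −3.05, beside −0.90 over all tested genes. Igkc, the kappa constant region, was at 8746, 588, 1241 and 139 TPM in UMPS_BKO replicates 1 to 4, against 4715, 43498, 26420 and 12722 TPM in control replicates 1 to 4. The highest UMPS_BKO library thus exceeded the lowest control. The log2 difference of −4.06 ± 1.11 (SE) did not pass (limma, adjusted p = 0.277). UMPS_BKO replicate 3, with the most kappa joining reads of its group, was below all controls for Igkc. Ighm, the IgM constant region, was at 3425, 365, 657 and 121 TPM in UMPS_BKO and at 1566, 4062, 5835 and 4214 TPM in control (limma, log2 difference −2.65, adjusted p = 0.283). Among the other constant regions the log2 differences ran from −7.01 for Ighg2c (limma, adjusted p = 0.118) to −2.08 for Igha (limma, adjusted p = 0.297).

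Lambda joining segments, the counterparts in the third antibody locus, were read for 2 of 5. Iglj1 had 156 TPM in UMPS_BKO replicate 1 and none in the other 3 libraries, against 49.8, 303, 438 and 377 TPM in control replicates 1 to 4. UMPS_BKO replicate 1 lay between the controls, and the log2 difference of −5.99 ± 1.45 (SE) did not pass (limma, adjusted p = 0.201). Iglj3 differed by −4.76 ± 1.88 (SE; limma, adjusted p = 0.283). Of 17 heavy chain diversity segments, 4 were read in any library and none passed the filter.

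Of the recombination and end joining genes, Rag1, Rag2, Dntt and Dclre1c stood at a few TPM or less. Others were higher, such as Hmgb2 at 23.6 to 324 TPM over the 8 libraries. Rag2, which together with Rag1 cuts at recombination signals, was listed at 0 in all 8 libraries, and Rag1 did not exceed 0.924 TPM. Dntt, which adds untemplated bases at the joints, reached 1.45 TPM in UMPS_BKO replicate 1 and 2.26 TPM in control replicate 2, and was 0 elsewhere. Dclre1c, whose nuclease Artemis opens and trims the coding ends, was at 0 to 0.299 TPM in UMPS_BKO and at 0, 0.977, 2.53 and 2.83 TPM in control replicates 1 to 4. The surrogate light chain genes Vpreb1, Vpreb2 and Igll1 of early B cells were at 0 throughout. Of 13 recombination and end joining genes, 8 were tested. The 4 with the smallest p were Xrcc4, a partner of DNA ligase IV (log2 difference −1.92 ± 0.75, SE), the DNA-bending protein gene Hmgb2 (−1.52 ± 0.67), Paxx (−1.60 ± 0.75) and the ligase gene Lig4 (−1.38 ± 0.66). None passed in limma (adjusted p = 0.283, 0.283, 0.288 and 0.288). Vpreb3 (−2.98, adjusted p = 0.283), the receptor partners Cd79a (−2.75, adjusted p = 0.283) and Cd79b (−2.56, adjusted p = 0.283) and the IgM and IgA joining chain gene Jchain (−3.46, adjusted p = 0.283), which is no joining segment, did not pass either in limma.

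Outside the antibody segments, the genes whose log2(TPM + 1) followed the mean of the heavy chain segments most closely across the 8 libraries were Zfp622 (Pearson r = 0.980), Ppp1r7 (r = 0.978), Ass1 (r = 0.977) and Copb1 (r = 0.973), of 9579 genes ranked. For the mean of the kappa segments they were Mydgf (r = 0.989), Spn (r = 0.982), Blvrb (r = 0.977) and Tcf19 (r = 0.976). The 2 sets share no gene. These 8 points share their depth and composition, and the correlations are descriptions. Ass1, for example, was at 13.0, 0.800, 1.84 and 2.80 TPM in UMPS_BKO and at 9.59, 544, 297 and 14.9 TPM in control, with its highest values in the 2 controls that held the most hepatocyte transcripts.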

How the data were processed

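Per the labels' protocols, poly(A) RNA was captured on oligo(dT) beads and libraries were built with a NEBNext Ultra II kit. The submitters' processing notes name bcl2fastq 2.20, STAR 2.5.2b, featureCounts, Subread 1.5.2 and GRCm38. The authors deposited TPM, 1 column per library, matched to samples by library name. The sources used here do not give the TPM calculation, annotation release, strand setting or treatment of reads over several features. Exon lengths came from GENCODE M21, for 49056 features. With the reads recovered from value steps, 90.6% to 92.9% of values under 30 reads were whole within 0.05, and no count model was run on them. The contrast was tested across genes by limma 3.58.1 (R 4.3.3) on log2(TPM + 1), eBayes with a mean trend, two-sided, with Benjamini-Hochberg adjustment and a threshold of 0.05, and was tried on simulated data. Python 3.11.15, numpy 2.4.6, pandas 2.3.3 and scipy 1.17.1 did the rest.

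The 9 segments and the lists were chosen with earlier results of these data known. By rule, all 9 segments were named, together with constant regions, up to 4 genes of each other list with the smallest p, and the 4 genes most like each locus, leaving out provisional symbols. Gm30211 was named for its position. Igkv4-74, Ighv5-16 and the untested Rag1, Rag2, Dntt, Dclre1c and surrogate light chain genes were named for their values. Other settings tried were a pseudocount of 0.1 or 5, no filter, a mean TPM of at least 5, median-of-ratios or quantile scaling, array weights, no trend, a replicate block, and leaving out each library with the minimum of 4 libraries kept. Further settings, added after the data were seen, left out 2 libraries together. They also repeated each fit with libraries left out at a minimum of 3 libraries, a choice made after the minimum of 4 was seen to leave Ighj1 untested.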

Additional observations from a re-analysis of the deposited data

Results flagged for a closer look

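In 6 of the 16 combinations of segment and group with any read, 1 of the 4 libraries lay far from the other 3, by Dixon's criterion. Chance flags about 1 in 20 such groups, and a group in which 3 libraries are at 0 is always flagged. In UMPS_BKO these were replicate 1 for Ighj2 (6.37 TPM), Ighj4 (72.7 TPM) and Igkj2 (91.4 TPM), and replicate 3 for Igkj3 (254 TPM) and Igkj4 (589 TPM). In control it was replicate 1 for Igkj3 (218 TPM).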

How the results depend on the processing

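Genes called lower in UMPS_BKO numbered 10, and 5 with a pseudocount of 5, 6 with median-of-ratios scaling, quantile normalization or a mean TPM of at least 5, 1 without a filter and 1906 with array weights. Genes called higher numbered 4, and 1 with a pseudocount of 0.1, 0 without a filter and 84 with array weights. Genes of the antibody lists called numbered 0, and 17 with array weights. With 1 library left out and the planned minimum of 4 libraries kept, 0 to 284 genes were called lower, 0 to 17 higher and 0 to 12 of the lists. The lower count was 8 without control replicate 1, 0 without control replicate 2, 3 or 4, 284 without UMPS_BKO replicate 1, 1 without UMPS_BKO replicate 2 or 3 and 3 without UMPS_BKO replicate 4. It was 1 without UMPS_BKO replicates 2 and 4, with 0 higher, and 0 without control replicate 2 and UMPS_BKO replicate 4.

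Under that planned setting Ighj1 was tested and called in 5 of 10 fits and not tested in the other 5, each of which lacks a control. A minimum of 3 libraries was therefore tried as well, after this had been seen, and its counts are no independent check. It gave 1 to 149 lower with 1 library left out (51 without control replicate 1, 6 without control replicate 2, 149 without UMPS_BKO replicate 1, 1 in each of the others), 0 to 10 higher and 0 to 9 of the lists (2 without control replicate 1, 9 without UMPS_BKO replicate 1). It gave 1 lower with either pair left out, and 0 higher without UMPS_BKO replicates 2 and 4. With it Ighj1 was called in 10 of 10 fits, and in 9 of 9 alternatives on all 8 libraries. The choice of the segment fixed this direction, and its UMPS_BKO values have no spread. The cause of the moves in counts was not tested.

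The replicate number as a block (replicate block) gave 23 genes lower, 5 higher and 4 list genes. The labels do not say whether same-numbered samples are paired. Deviations of same-numbered samples correlated at −0.35, −0.19, −0.03 and −0.09, and 0 of 4 correlated best with its own number. These values rest on 4 samples per group that also differ in transcripts of other tissues, so they cannot exclude a pairing.

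The median log2 difference of the 9 segments was −5.83 to −2.51 under 15 alternatives. Of 135 segment values under alternatives, 9 changed sign: Ighj3 at 0.086 (0.49 and 0.96 with 2 libraries left out; −2.63 to 0.086 with 1), Igkj3 at −0.59 in 3 settings and −1.94 in another (−1.94 to 2.00 with 1), and Igkj4 at 1.65 and 0.085 (−3.75 to −0.68 with 1). Ighj1 moved to −10.99 and −5.39 with pseudocounts of 0.1 and 5. The heavy chain difference in joining per constant TPM, −6.06, was −16.7 per Ighm alone and −7.68 to −4.82 with 1 library left out. The kappa difference, 14.2, was −4.70 to 20.7. The mean Ighj1 share in the controls, 45.4%, was 32.1% to 53.3%, and 50.1% in TPM. UMPS_BKO replicates 2 and 4, with 1 and 0 heavy chain joining reads, held 11485 and 5337 heavy constant reads, the fewest of the 8 libraries. Their depth lay within the range of the others. They had 8626 and 12913 features above 0 TPM, against 11034 to 15889 in the controls.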
